A study of Homo sapiens with 6 samples.

Results

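Aminoacyl-tRNA synthetases, the enzymes that load amino acids onto their tRNAs, were followed through 6 RNA sequencing libraries of HCT116, a widely used line of human colorectal carcinoma cells. The 36 genes were taken by symbol from a list of 20 cytosolic and 16 mitochondrial enzymes, out of 19942 gene symbols in the tables. Symbols are given as the tables spell them, so that AARS stands for the gene now called AARS1. The cells were either parental (wild-type) or resistant to 5-fluorouracil (5-FU), a pyrimidine analogue used against colorectal cancer. Both kinds were sequenced without transfection, with a control siRNA and with an siRNA that targets EHMT2, the gene of the histone methyltransferase G9a. There was 1 library in each of the 6 groups, so pairs of libraries are compared without replicates and without a p-value. The labels do not say how the resistance was raised, whether the resistant cells are 1 clone, or how long the siRNAs acted.

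Apart from EPRS, which serves both glutamate and proline, each synthetase recognises 1 amino acid and its tRNAs. The charged tRNA then carries the amino acid to the ribosome. Cytosolic and mitochondrial translation use separate enzymes for most amino acids, and the mitochondrial ones are encoded in the nucleus and imported. KARS and GARS, counted here with the cytosolic enzymes, are known to supply both compartments from a single gene. In mammalian cells several cytosolic synthetases sit together in the multisynthetase complex with the scaffold proteins AIMP1, AIMP2 and EEF1E1. Many cytosolic synthetase genes are known targets of ATF4, the transcription factor of the integrated stress response, which answers to amino acid shortage and to stress in the endoplasmic reticulum.

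The values are FPKM (fragments scaled to transcript length and to the number of mapped fragments), which allow levels to be set side by side between genes of different length. The sequencing depth is unknown, since the files hold no read counts, and no counting interval is given. Library totals ran from 360695 to 446143 FPKM, and 11240 to 11722 genes reached an FPKM of 1. EHMT2 stood at 8.58 FPKM in parental and 3.80 in resistant cells with its siRNA, against 31.7 and 19.5 with control siRNA, so both libraries labelled as knockdown had the lower level. EHMT1, which encodes the partner methyltransferase GLP, had log2 ratios of −0.15 and −0.08 in the same pairs. Of 10 markers of colorectal epithelium, 6 reached an FPKM of 1 in each library, with sums between 1643 and 2563 FPKM, while CDX1, VIL1 and LGR5 were listed at 0 in all 6. Of 7 fibroblast markers 1 reached that level (COL1A1), and none of 5 immune and 3 endothelial markers did. The row order of the untransfected tables differed from that of the siRNA tables.

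Among the cytosolic genes 6 carry in their promoter the C/EBP-ATF response element, the sequence through which ATF4 is known to act, and the stretches around it are shown because AARS and CARS were among the synthetases whose levels varied most. RefSeq promoter windows (GRCh38.p14, 250 bases before to 50 after the gene start) were matched to 30 of the 36 members, 16 cytosolic and 14 mitochondrial, and searched on both strands for TGATGNAA. The stretches of 30 bases read 5′ to 3′ along the strand of the gene, with the matched bases in capitals, and a match on the other strand appears as TTGCATCA.
AARS, chr16:70289675-70289704, minus strand: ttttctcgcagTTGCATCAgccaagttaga
CARS, chr11:3057407-3057436, minus strand: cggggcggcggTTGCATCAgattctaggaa
IARS, chr9:92293692-92293721, minus strand: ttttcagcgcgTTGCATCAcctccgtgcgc
MARS, chr12:57488053-57488082, plus strand: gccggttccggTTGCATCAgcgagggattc
NARS, chr18:57621804-57621833, minus strand: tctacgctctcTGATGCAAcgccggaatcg
TARS, chr5:33440956-33440985, plus strand: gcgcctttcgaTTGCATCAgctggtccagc
YARS2, chr12:32756076-32756105, minus strand: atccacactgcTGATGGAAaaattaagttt
All 6 cytosolic matches read TGATGCAA on 1 of the strands, while the only mitochondrial one, in YARS2, reads TGATGGAA. In AARS the match began 187 bases before the gene start and in YARS2 197 bases before it. The other matches lay at the start itself, from 13 bases before it in IARS to 14 bases after it in NARS. The motif was in 37.5% of the cytosolic windows (6 of 16), in 7.14% of the mitochondrial windows (1 of 14) and in 3.62% of 35116 RefSeq promoter windows of this length. The windows of SARS and GARS held no match, and those of LARS, VARS, YARS, DARS, AARS2 and VARS2 were not among the matched windows. Other elements were searched for on both strands too. The cyclic AMP response element was in 0% of cytosolic, 0% of mitochondrial and 1.85% of all windows. In the same order the E-box was in 6.25% (1 of 16), 21.4% (3 of 14) and 7.26%. The 3 mitochondrial windows were those of EARS2, MARS2 and CARS2, and the place of the CARS2 window is given below. The interferon-stimulated response element was in 0%, 7.14% and 3.57%, and the STAT site in 12.5%, 14.3% and 7.66%. The CARS2 window (chr13:110706466-110706765, minus strand) lies inside the gene as GENCODE 29 places it (110641412 to 110713603). So does the MARS window (chr12:57487818-57488117, plus strand), in a gene placed at 57475445 to 57517569. The CARS2 and MARS starts of that annotation were therefore not searched. The windows of KARS, FARSA, HARS, NARS, QARS, TARS, WARS and EARS2 also lie inside their genes, nearer to the annotated start, without reaching it. Distances given above count from the RefSeq start. A match describes the letters in the window and does not show that a factor binds there.

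All 36 synthetases passed the filter of 1 FPKM in at least 1 library, and each mitochondrial enzyme was expressed below its cytosolic partner for the same amino acid in every library. Summed over the 20 cytosolic enzymes, the level was 1462 FPKM in parental and 1128 in resistant untransfected cells, 1135 and 1423 under control siRNA, and 1035 and 1417 under EHMT2 siRNA. The 16 mitochondrial enzymes summed to 165, 163, 172, 169, 211 and 195 FPKM in the same order. The untransfected libraries had unlike totals, 446143 FPKM in parental and 376285 in resistant cells. Of these totals the cytosolic enzymes made up 0.328% and 0.300%, and the mitochondrial ones 0.0370% and 0.0434%. The cytosolic sum was therefore 4.92 to 8.85 times the mitochondrial one, lowest in parental cells with EHMT2 siRNA and highest in untransfected parental cells. GARS, the glycyl-tRNA synthetase, had the highest cytosolic level in 5 libraries (84.8 to 165 FPKM), and SARS, the seryl enzyme, had it in untransfected parental cells at 187 FPKM. FARSB, the beta subunit of phenylalanyl-tRNA synthetase, was the lowest cytosolic member throughout and also the steadiest, between 10.5 and 11.4 FPKM. IARS2, the mitochondrial isoleucyl enzyme, led the mitochondrial class in each library with 35.96 to 54.9 FPKM, and the lowest mitochondrial values were those of AARS2, MARS2, WARS2 or FARS2 at 2.33 to 3.59 FPKM.

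**Figure D1:**
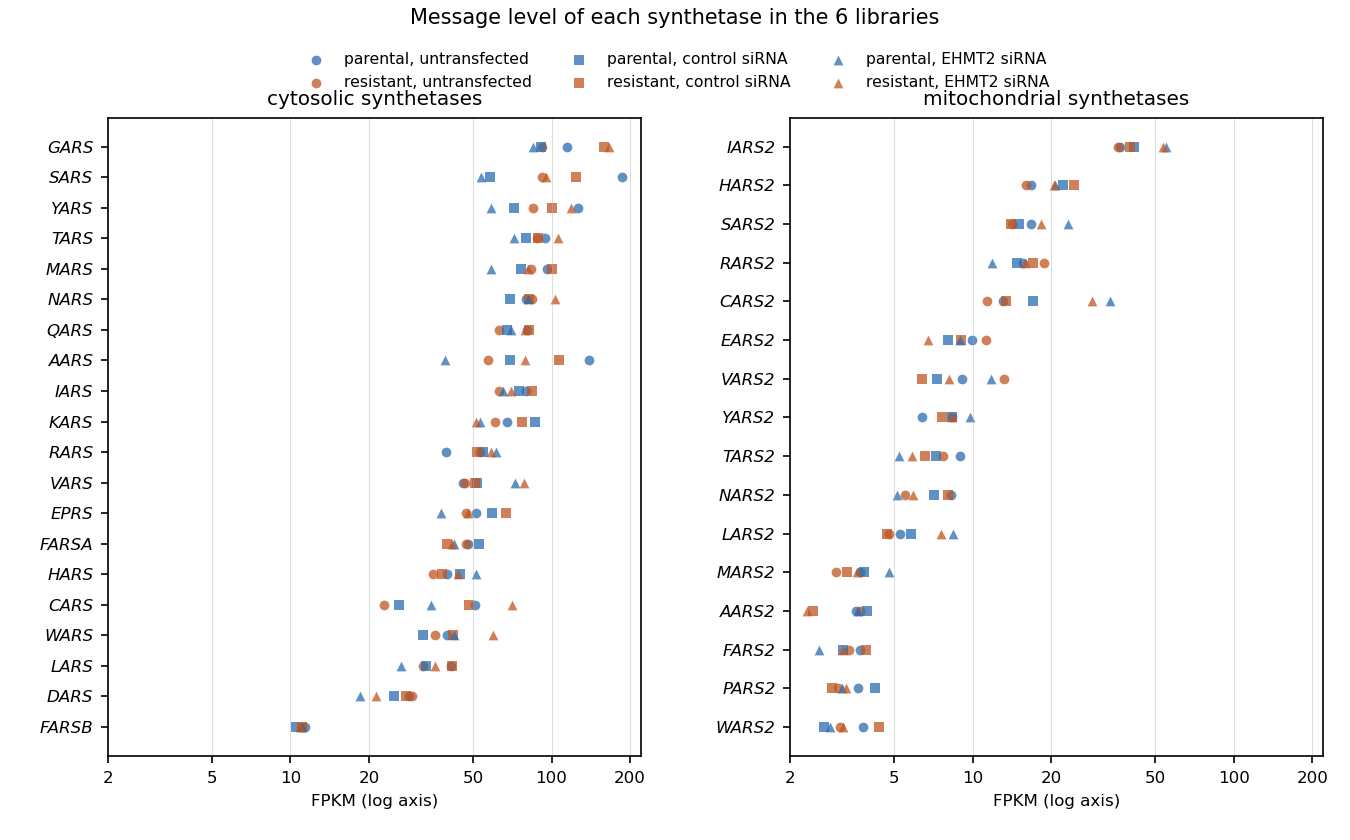
FPKM of each synthetase (log axis) in the 6 libraries, cytosolic enzymes left and mitochondrial enzymes right, each ordered by level, with 1 symbol per library. AARS, SARS and CARS spread most along the axis, FARSB least, and CARS2 stands apart in both EHMT2 siRNA libraries.

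The gap between partners for the same amino acid differed widely. AARS stood a median of 25.7 times above AARS2 over the 6 libraries and MARS 24.2 times above MARS2. The narrowest gaps were those of IARS over IARS2 at 1.78 times, HARS over HARS2 at 2.17 times and CARS over CARS2 at 2.23 times. The gap was not fixed: CARS over CARS2 ran from 1.03 to 3.89 times and SARS over SARS2 from 2.31 to 11.1 times. Between its highest and lowest library AARS differed 3.55-fold, SARS 3.47-fold and CARS 3.12-fold, and among mitochondrial enzymes CARS2 differed most at 2.96-fold. Some of the members share sequence with neighbouring genes. In GENCODE 29, SARS2 shares 57.0% of its exonic bases with other genes, among them MRPS12, VARS2 shares 21.99% with GTF2H4 and HARS2 15.8% with HARS and ZMAT2. MARS shares 13.3% with ARHGAP9, DDIT3 and MIR6758, and DDIT3 is 1 of the ATF4 response genes set beside the synthetases below. Since no source used here states whether counting used the strand, reads of such overlaps cannot be assigned with certainty.

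The first comparison set 5-FU resistant against parental cells in 3 pairs of libraries that share no library. Several cytosolic synthetases had opposite orders in these pairs, as they were lower in resistant cells when untransfected and higher under either siRNA. In bulk RNA, fewer cells with a message and less message per cell cannot be told apart.

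AARS (ENSG00000090861, chromosome 16, 70252295 to 70289543), the alanyl-tRNA synthetase, was 139 FPKM in parental and 56.9 in resistant untransfected cells, 69.4 and 107 under control siRNA, and 39.1 and 78.9 under EHMT2 siRNA. The resistant level was thus 41.0% of the parental one without transfection and 154% and 202% of it under the siRNAs, or log2 ratios (FPKM plus 1) of −1.27, 0.61 and 0.99. CARS (ENSG00000110619, chromosome 11, 3000922 to 3057613), the cysteinyl enzyme, was 50.8 and 22.7 FPKM untransfected, 25.97 and 48.5 under control siRNA, and 34.7 and 70.8 under EHMT2 siRNA. Its ratios were −1.13, 0.87 and 1.01, so the order of the lines turned as for AARS. SARS (ENSG00000031698, chromosome 1, 109213918 to 109238169) was 187 and 91.7 FPKM untransfected, 58.2 and 124 under control siRNA, and 53.7 and 95.4 under EHMT2 siRNA, with ratios of −1.02, 1.08 and 0.82. In each of the 3 genes untransfected parental cells stood above untransfected resistant cells, and both siRNA pairs had the opposite order, so the groups of 3 libraries overlapped.

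GARS and YARS had the same order with smaller gaps in untransfected cells. GARS was 115 FPKM in parental and 92.2 in resistant untransfected cells, 91.2 and 159 under control siRNA, and 84.8 and 165 under EHMT2 siRNA, with ratios of −0.31, 0.79 and 0.96. YARS, the tyrosyl enzyme, was 127 and 85.2 FPKM untransfected, 71.9 and 101 under control siRNA, and 58.6 and 118 under EHMT2 siRNA, with ratios of −0.57, 0.48 and 1.00. MARS, LARS, QARS, IARS, TARS, WARS and EPRS, for methionine, leucine, glutamine, isoleucine, threonine, tryptophan, and glutamate with proline, had ratios between −0.36 and −0.11 untransfected, between 0.15 and 0.39 with control siRNA, and between 0.11 and 0.55 with EHMT2 siRNA. Of these, MARS, TARS, WARS and EPRS were above 0 in untransfected cells too when the libraries were rescaled to the same sum. At least 2-fold lower in untransfected resistant cells were AARS, CARS and SARS, 3 of 20 cytosolic and 0 of 16 mitochondrial members, where 3.74% of all genes were that much lower, and no member was 2-fold higher, where 3.31% of all genes were. With the libraries rescaled to the same sum AARS alone stayed 2-fold lower, at −1.03, with CARS at −0.89 and SARS at −0.77. With control siRNA SARS alone was 2-fold higher (1.5% of all genes were) and no member was 2-fold lower (0.902%). With EHMT2 siRNA CARS and YARS were 2-fold higher (1.49% of all genes were) and no member was 2-fold lower (1.5%). After the rescaling CARS and YARS stood at 0.97 and 0.96, just short of 2-fold.

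**Figure D2:**
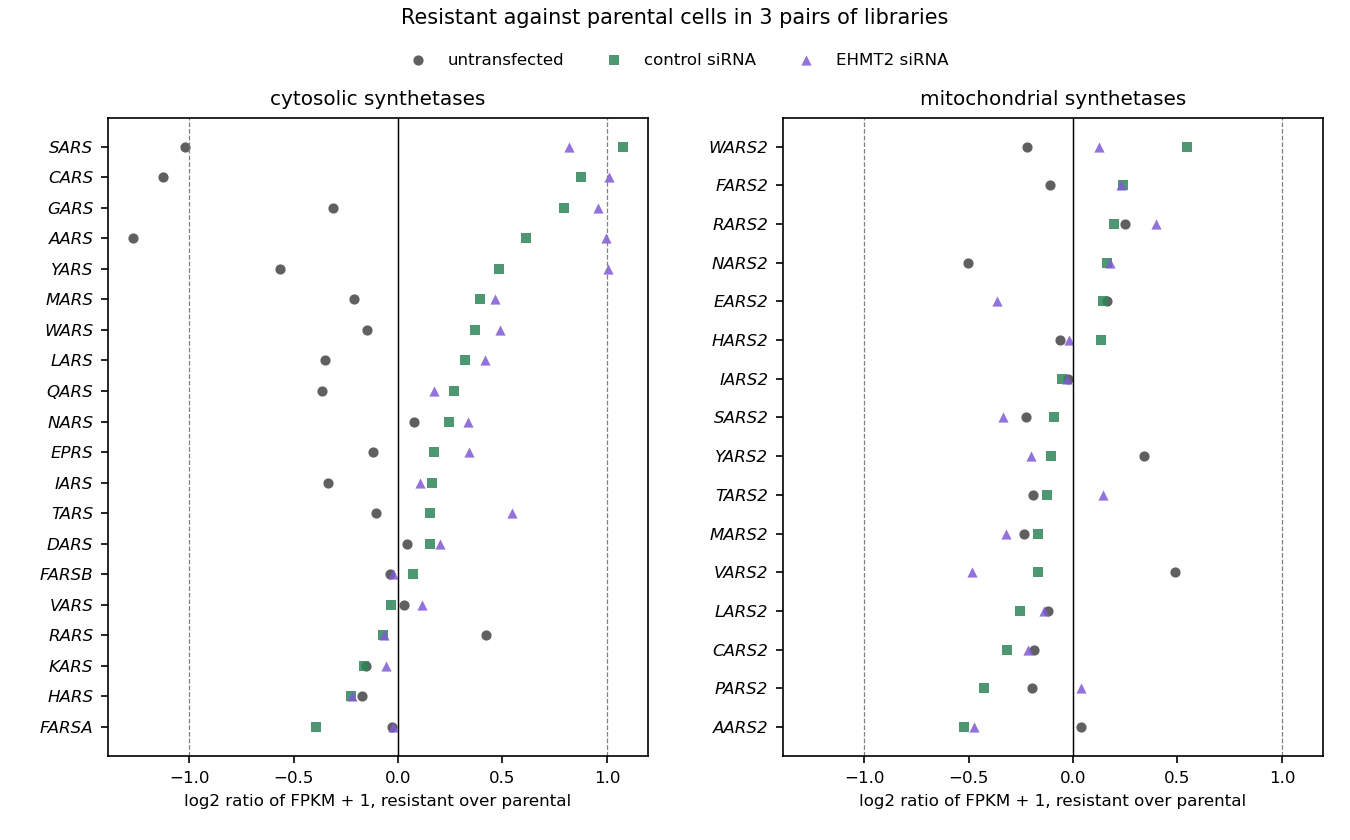
Log2 ratio of FPKM plus 1 in resistant over parental cells, per synthetase, for untransfected, control siRNA and EHMT2 siRNA libraries, ordered by the control siRNA ratio, with dashed lines at 2-fold. SARS, CARS, GARS, AARS and YARS lie below 0 when untransfected and near or above 0.5 under both siRNAs, and no mitochondrial enzyme reaches a dashed line.

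On the values as deposited, the cytosolic class median changed sign between these pairs and the mitochondrial one did not. The cytosolic median ratio was −0.16 untransfected, 0.21 with control siRNA and 0.34 with EHMT2 siRNA, beside 0.06, −0.01 and −0.05 for all 12310 genes at 1 FPKM or more, and the untransfected value turned to 0.08 when the libraries were rescaled to the same sum, which shifted the median of all genes by 0.21. The mitochondrial median was −0.11, −0.10 and −0.08, and it too turned to 0.08 in the untransfected pair under that rescaling. The cytosolic minus mitochondrial difference was −0.05, 0.31 and 0.42. The first lay between −0.10 and −0.01 under the other settings, and the siRNA pairs stayed above 0 in all of them. Below 0 untransfected and above 0 with control siRNA were 13 of 20 cytosolic and 4 of 16 mitochondrial members, against 25% of all genes. With the libraries rescaled to the same sum the counts were 8 of 20 and 2 of 16, against 16.6% of all genes.

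Some members had 1 order of the lines in all 3 pairs, and which ones depended on the scaling. DARS and NARS, the aspartyl and asparaginyl enzymes, and RARS2, the mitochondrial arginyl enzyme, were higher in resistant cells in all 3 pairs, as were 13.6% of all genes. FARSA, HARS and KARS with CARS2, IARS2, LARS2, MARS2 and SARS2 were lower in all 3, as were 12.7% of all genes. With the libraries rescaled to the same sum only MARS2 was lower in all 3 (7.34% of all genes were), and EPRS, MARS, TARS, WARS and FARS2 joined DARS, NARS and RARS2 as higher in all 3 (18.7% of all genes were). The 3 resistant libraries lay above all 3 parental ones for NARS and RARS2, an order that 2.79% of all genes had, and below them for MARS2, as for 2.73% of all genes. NARS was 81.8 to 103 FPKM in resistant and 69.1 to 81.6 in parental cells. RARS2 was 15.9 to 18.7 FPKM in resistant and 11.9 to 15.6 in parental cells. These gaps between the lines were narrow beside the spread within each line, and the limma fit over 6 libraries gave adjusted p-values of 0.942 for NARS, 0.941 for RARS2 and 0.942 for MARS2 (Benjamini-Hochberg).

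Read within a line, the control siRNA libraries stood on opposite sides of the untransfected ones. These ratios rest on the same 4 libraries as the first 2 line pairs. AARS with control siRNA was 188% of the untransfected level in resistant and 50.02% in parental cells, CARS 213% and 51.1%, and SARS 135% and 31.2%. Higher in resistant and lower in parental cells were 12 of 20 cytosolic and 3 of 16 mitochondrial members, against 22.1% of all genes. With the libraries rescaled to the same sum IARS, FARSB and TARS left this set, while FARS2, NARS2 and WARS2 stayed. No share over all genes was computed for that rescaled set. CARS in resistant cells was 2-fold higher (4.09% of all genes were), and SARS in parental cells was 2-fold lower (1.97% of all genes were). No member was 2-fold lower in resistant cells (3.66% of all genes) or 2-fold higher in parental cells (0.902%). The cytosolic medians of these comparisons were 0.25 in resistant and −0.22 in parental cells, or 0.21 and −0.04 with the libraries rescaled to the same sum. The mitochondrial ones were −0.02 and −0.01, with the first at 0.02 when ratios were centred on the median of all genes and the second at 0.14 after the rescaling. Transfection, and any difference in how the untransfected libraries were made, cannot be told apart.

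Line and treatment were then fitted together as additive terms to log2(FPKM + 1) of all genes with limma and Benjamini-Hochberg adjustment over 11521 genes. The labels do not say whether the libraries came from separate cultures, and the p-values measure only the spread among these libraries around additivity, since the interaction of line and treatment is the error term. Over all 6 libraries limma called 0 of 36 members for line, where 0% of all genes passed in either direction, and 0 members and 603 of all genes had an unadjusted p under 0.05. SARS had a line coefficient of 0.29 (SE 0.42) and AARS one of 0.11 (SE 0.45) in that fit.

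Restricted to the 4 siRNA libraries, limma called 5 of 20 cytosolic and 0 of 16 mitochondrial members higher in resistant cells and none lower, where 4.49% of all genes rose and 4.47% fell (Benjamini-Hochberg). SARS rose by 0.95 (log2 scale, SE 0.12, adjusted p = 0.0131), CARS by 0.94 (SE 0.11, adjusted p = 0.0122) and GARS by 0.87 (SE 0.12, adjusted p = 0.0144) in this limma fit. AARS rose by 0.80 (SE 0.13, adjusted p = 0.0219) and YARS by 0.74 (SE 0.15, adjusted p = 0.0342), also in limma. In the fit over all 6 libraries none of the 5 passed. MARS, at 0.43 (adjusted p = 0.0573), and WARS, at 0.43 (adjusted p = 0.0594), just missed the threshold of 0.05 in the limma fit of the siRNA libraries.

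Other genes of amino acid supply were also mostly lower in untransfected and higher in siRNA-treated resistant cells. The 26 measured of 31 listed ATF4 response genes that are not synthetases had median ratios of −0.41 untransfected, 0.92 with control siRNA and 0.85 with EHMT2 siRNA. Below 0 untransfected and above 0 with control siRNA were 23 of the 26 and 10 of 12 amino acid transporters, against 25% of all genes, and 2 transporters had the opposite turn. ATF4 itself was 397 and 260 FPKM untransfected, 181 and 282 under control siRNA, and 145 and 248.9 under EHMT2 siRNA, in parental and resistant cells in turn. ASNS, the asparagine synthetase that makes the amino acid itself, had ratios of −1.01, 1.85 and 2.03, and CHAC1, which degrades glutathione, had −1.47, 2.32 and 2.62. In the limma fit of the 4 siRNA libraries 21 of the 26 rose in resistant cells and 0 fell, beside 4.49% and 4.47% of all genes, among them TRIB3, a pseudokinase, at 1.70 and DDIT3, the transcription factor CHOP, at 1.99 on the log2 scale. Of the 12 transporters 5 rose and 0 fell, led by SLC7A11, the cystine importer, at 1.40 (adjusted p = 0.00489, limma with Benjamini-Hochberg). Of 16 mitochondrial translation factors MTIF3, an initiation factor, rose and TSFM, an elongation factor, fell, which is near the shares over all genes, and the list's median ratios were 0.04, −0.07 and −0.05. The ATF4 and synthetase lists were drawn up with earlier results of these data known, so their shared direction is a description. MYC, a transcription factor of growth genes, had ratios of −1.04, 0.52 and 0.18 and EHMT2 of 0.44, −0.68 and −0.99 in the same pairs, and their part in the synthetase levels was not tested.

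**Figure D3:**
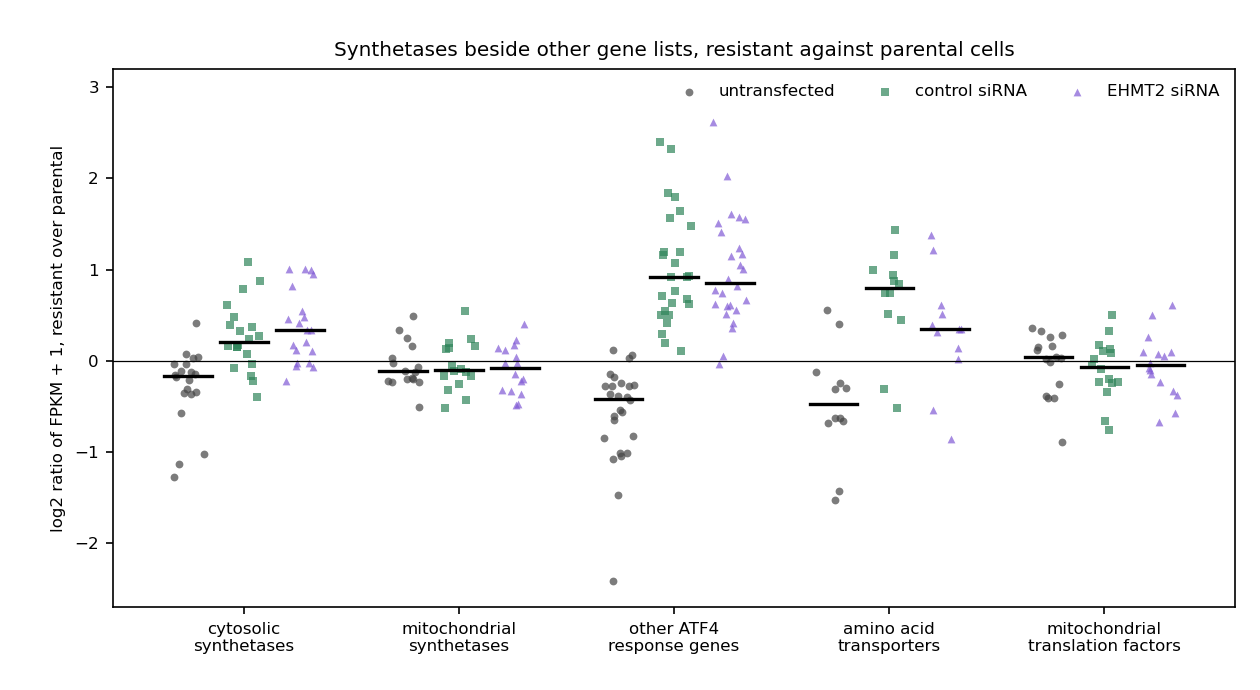
Log2 ratio of FPKM plus 1 in resistant over parental cells for each gene of 5 lists (points) with the list median (bar), in untransfected, control siRNA and EHMT2 siRNA libraries. Cytosolic synthetases, ATF4 response genes and amino acid transporters have medians below 0 when untransfected (the cytosolic one at 0.08 with libraries rescaled to the same sum) and above 0 under both siRNAs, and both mitochondrial lists stay near 0.

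The cytosolic genes whose windows hold TGATGNAA, printed above, had median line ratios of −0.27 untransfected, 0.32 with control siRNA and 0.50 with EHMT2 siRNA. The 10 cytosolic genes with a window but no match had −0.15, 0.12 and 0.07. The untransfected order depended on the scaling. With the libraries rescaled to the same sum, AARS, CARS and IARS stayed below 0 in that pair, at −1.03, −0.89 and −0.09. MARS, TARS and NARS stood above 0, at 0.03, 0.14 and 0.32. Of the genes without the motif, SARS, QARS and GARS stayed below 0 under that rescaling, and the others stood above it. All 6 genes with the motif were above 0 in both siRNA pairs. Of the 10 without it 6 were above 0 with control siRNA and 5 with EHMT2 siRNA, beside 47.4% and 44.8% of all genes. Their ranges overlapped: with control siRNA they ran from 0.15 to 0.87 with the motif and from −0.39 to 1.08 without it, where SARS was the highest. In YARS2, the only mitochondrial gene with a match, the ratios were 0.34, −0.11 and −0.20.

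The second comparison set EHMT2 siRNA against control siRNA within each line, in 2 pairs that share no library. CARS2 was higher in both lines, KARS, EPRS and AARS were lower in both, and in parental cells the cytosolic median lay below the mitochondrial one, by a difference of −0.23 (−0.01 in resistant cells). CARS2 (ENSG00000134905, chromosome 13, 110641412 to 110713603), the mitochondrial cysteinyl-tRNA synthetase, was 28.8 FPKM with EHMT2 siRNA and 13.4 with control siRNA in resistant cells, and 33.5 and 17.0 in parental cells. It stood at 214% and 197% of the control level, and the untransfected libraries, at 11.3 and 13.1 FPKM, lay below all siRNA libraries. CARS2 in resistant cells was the single member at least 2-fold higher in a knockdown pair (4.98% of all genes were in that line), and none was in parental cells (7.26% of all genes were). No member was 2-fold lower in resistant (3.86% of all genes) or parental cells (3.4%).

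Other mitochondrial synthetases had higher levels with EHMT2 siRNA too. LARS2, for leucine, was 7.54 against 4.70 FPKM in resistant and 8.41 against 5.79 in parental cells. IARS2 was 53.9 against 40.1 FPKM and 54.9 against 41.7. SARS2, for serine, was 18.3 against 14.1 and 23.3 against 15.1 FPKM, with the exonic overlap given above. NARS2, the asparaginyl enzyme, went the other way, at 5.92 against 8.05 and 5.11 against 7.10 FPKM. Both EHMT2 siRNA libraries lay above both control siRNA libraries for CARS2, IARS2, LARS2, SARS2, VARS2 and YARS2, 6 of 16 mitochondrial members, and for RARS, VARS and WARS, 3 of 20 cytosolic members, against 35.4% of all genes. They lay below for HARS2, NARS2 and TARS2 and for DARS, EPRS, IARS and KARS, against 26.3% of all genes, so the members' shares lay near or below the background.

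**Figure D4:**
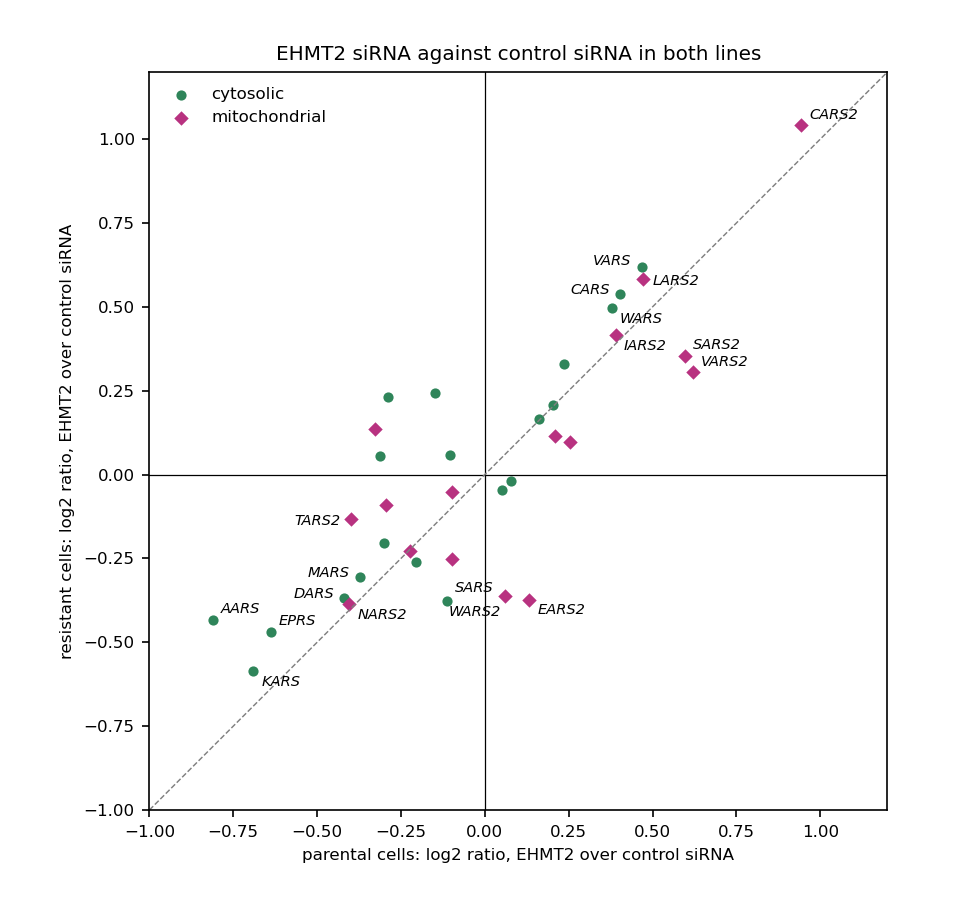
Log2 ratio of FPKM plus 1, EHMT2 siRNA over control siRNA, in parental cells (x axis) and resistant cells (y axis) for each synthetase, with the line of equal ratios dashed. CARS2 lies alone near 1 in both lines, and KARS, EPRS and AARS lie lowest in both.

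Among cytosolic enzymes VARS, for valine, was 78.5 FPKM with EHMT2 siRNA and 50.7 with control siRNA in resistant cells, and 72.3 and 52.0 in parental cells. WARS, the tryptophanyl enzyme known to be induced by interferon gamma, was 59.6 against 42.0 FPKM and 42.3 against 32.3. KARS (ENSG00000065427, chromosome 16, 75627474 to 75648643), the lysyl enzyme of both compartments, was 51.2 against 77.4 FPKM in resistant and 53.3 against 86.6 in parental cells, which is 66.1% and 61.6% of the control level. EPRS was 48.1 against 66.9 and 37.8 against 59.3 FPKM, and AARS was 78.9 against 107 and 39.1 against 69.4 FPKM. CARS was higher with EHMT2 siRNA within each line, by 0.54 in resistant and 0.40 in parental cells on the log2 scale, but its libraries overlapped because the lines differ. With KARS and EPRS the EHMT2 siRNA libraries did not overlap those with control siRNA, and for KARS they were also below both untransfected libraries.

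Between the lines the members' knockdown ratios ran largely in parallel. Higher with EHMT2 siRNA in both lines were 6 of 20 cytosolic and 7 of 16 mitochondrial members, against 46.1% of all genes, and lower in both were 8 and 6, against 35.5% of all genes. Across genes the ratios of the lines had a Pearson r of 0.87 for the cytosolic and 0.80 for the mitochondrial enzymes, and 0.81 over all genes, where genes are not independent replicates. YARS was 0.23 in resistant and −0.29 in parental cells, TARS, the threonyl enzyme, 0.24 and −0.15, and EARS2, the mitochondrial glutamyl enzyme, −0.37 and 0.13, and these differences between the lines were not tested. The cytosolic median ratio was 0.02 in resistant and −0.13 in parental cells, where the first turned to −0.06 after quantile normalisation and the second was −0.01 with the libraries rescaled to the same sum. The mitochondrial median was 0.02 and 0.10, which turned to −0.01 and −0.03 after that normalisation.

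Over all 6 libraries limma called 0 of 36 members for EHMT2 siRNA, where 0% of all genes passed, with 3 cytosolic, 3 mitochondrial and 3060 of all genes at an unadjusted p under 0.05. CARS2 came nearest at 0.99 (log2 scale, SE 0.17, adjusted p = 0.0559, limma with Benjamini-Hochberg). Over the 4 siRNA libraries limma called 3 cytosolic and 5 mitochondrial members that rose, where 23.8% of all genes rose, and 5 cytosolic and 0 mitochondrial members that fell, where 18.7% fell. CARS2 rose by 0.99 (SE 0.12, adjusted p = 0.00166) in this fit of limma, and LARS2, SARS2, VARS2 and IARS2 rose by 0.53, 0.48, 0.46 and 0.40. In resistant cells VARS2 was 6.37 FPKM with control and 8.12 with EHMT2 siRNA, both below the untransfected 13.2. In parental cells it was 7.30 and 11.8, against 9.11 untransfected. VARS, CARS and WARS rose by 0.54, 0.47 and 0.44. KARS fell by 0.64 (log2 scale, SE 0.11, adjusted p = 0.00548), AARS fell by 0.62, EPRS fell by 0.55, DARS fell by 0.39 and MARS fell by 0.34 in the same limma fit.

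Of the 11 listed genes of the multisynthetase complex, KARS, EPRS, DARS and MARS fell in the limma fit of the 4 siRNA libraries and 0 rose, beside 18.7% and 23.8% of all genes. The scaffold genes did not pass: AIMP1 had an estimate of 0.27 (adjusted p = 0.105), AIMP2 one of 0.14 (adjusted p = 0.377) and EEF1E1 one of −0.36 (adjusted p = 0.0627) with limma. The complex had median ratios of −0.20 in resistant and −0.30 in parental cells, lower than the medians of 0.06 and 0.09 over all genes. RARS, which also belongs to it, was higher in both lines at 0.17 and 0.16.

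The ATF4 response genes did not move as 1 block with EHMT2 siRNA. In the 4-library limma fit 8 of 26 fell, among them ASNS by 0.67 and TRIB3 by 0.81 on the log2 scale, and 3 rose, among them DDIT3 at 0.88, beside 18.7% and 23.8% of all genes (Benjamini-Hochberg). Of the mitochondrial translation factors GFM2, MTG1, QRSL1 and GFM1 rose and TUFM, the mitochondrial elongation factor Tu, fell by 0.76 on the log2 scale. These 4 and 1 of 16 lie near and below the shares of all genes that rose and fell. MYC fell by 1.48 on the log2 scale (adjusted p = 0.00085, limma with Benjamini-Hochberg). Whether any of these genes bears on the synthetases was not tested.

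For control siRNA against untransfected cells limma over all 6 libraries called 0 of 36 members, where 0.0347% of all genes rose and 0.00868% fell (Benjamini-Hochberg). At an unadjusted p under 0.05 were 0 cytosolic and 1 mitochondrial member, HARS2, and 813 of all genes. HARS2, the mitochondrial histidyl enzyme, had a coefficient of 0.49 (SE 0.17, adjusted p = 0.70 with limma), and its control siRNA libraries, at 24.5 and 22.3 FPKM, lay above the untransfected ones at 16.0 and 16.7.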

How the data were processed

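RNA was measured in 6 libraries of HCT116 cells, 1 per group, for which the labels' protocols name a TruSeq kit for RNA. The deposited values are FPKM made by the authors, and the tools listed in the submitters' processing notes are HISAT2 2.2.1 and StringTie 2.1.1, with FastQC 0.12.1, cutadapt 4.9 and build GRCh38. Annotation release, strand and depth: not given in the sources used here. Each of the 19957 rows per table was assigned by symbol, and of repeated symbols the row of highest mean was kept (19942 symbols). Ratios are log2 of FPKM plus 1, over the 12310 genes that reached 1 FPKM in any library, and 2-fold marks were counted. Limma 3.58.1 in R 4.3.3 (trend, additive line and treatment, 2 residual degrees of freedom, 1 with 4 libraries) used 11521 genes at 1 FPKM in at least 3 libraries, with Benjamini-Hochberg adjustment at 0.05. It was run on simulated data with additive changes only, which cannot show how it behaves where line and treatment interact. Promoters and coordinates came from RefSeq and GENCODE 29. The members and lists were chosen with earlier results of these data known. All members are named, with a preset group of related genes and the 2 highest and lowest of each list described, and genes named because they passed a test were chosen after their values were seen. Alternatives were other pseudocounts, filters, scalings, fold marks, fits and left-out libraries. A list that holds a withheld gene is not reported here.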

Additional observations from a re-analysis of the deposited data

Results flagged for a closer look

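The resistant over parental ratios of AARS, CARS and SARS had opposite signs in untransfected and in siRNA-treated cells. Under control siRNA the log2 ratio exceeded the untransfected one by 1.89 for AARS, 2.002 for CARS and 2.097 for SARS. Under EHMT2 siRNA it exceeded it by 2.26 for AARS, 2.14 for CARS and 1.84 for SARS. The cytosolic median stood 0.37 higher under control siRNA than without transfection. With 1 library per group these differences between pairs were not tested. Opposite signs of any size were seen in 22 of 36 members in each of these 2 comparisons, which is near the 58.1% and 59.4% of all genes. Under control siRNA these were 15 of 20 cytosolic and 7 of 16 mitochondrial members, and under EHMT2 siRNA 13 and 9. Between the knockdown ratios of the lines opposite signs were seen in 9 of 36 members and 17.9% of all genes.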

How the results depend on the processing

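No paired analysis was possible because the groups share only replicate number 1, so the number cannot serve as a block. The cytosolic minus mitochondrial medians moved by less than 0.23 under every alternative run. That mark is their residual SD around additive line and treatment, so it holds the turn of the lines and is wide. Centring on the median cannot move such a difference, and rescaling a library hardly does. Of 1729 recomputed member ratios 156 moved by their own residual SD or more. That SD holds the turn of the lines as well, so it is wide for AARS, CARS and SARS. No ratio that was 2-fold changed sign, but rescaling, which shifted the median of all genes by 0.21 at most, could hardly do that. At the same sum 1 member was 2-fold lower in the untransfected lines (2.49% of all genes were). In the lines with EHMT2 siRNA 0 were 2-fold apart (1.36% of all genes were higher and 1.82% lower). In parental knockdown 1 was 2-fold higher (9.39% of all genes were). At 1.5-fold, members apart numbered 4 and 5 for the lines with control and EHMT2 siRNA and 3 and 6 for resistant and parental knockdown. For control siRNA in resistant and parental cells they numbered 5 and 4. A pseudocount of 0.1 gave 2 members 2-fold apart for control siRNA in resistant cells. No share over all genes was computed at 1.5-fold or with that pseudocount, so these counts only describe size. Limma over the 4 siRNA libraries called 5 members that rose for line (4.49% of all genes did), against 0 over all 6. For EHMT2 siRNA it called 8 that rose and 5 that fell (23.8% and 18.7% of all genes did), again against 0. A filter at 5 FPKM gave 1 riser for EHMT2 siRNA, CARS2, with no share over all genes to set beside it. Each library was also left out in turn, and only estimates are given, since the lone library left in a group is assumed to vary like the others. Without the parental or the resistant untransfected library, the lone untransfected library is fitted exactly. The line and EHMT2 siRNA estimates then equal those of the 4 siRNA libraries by construction. Line estimates turned negative without either control siRNA library for AARS (−0.14), CARS (−0.06) and SARS (−0.10), and without either EHMT2 siRNA library for AARS (−0.33), CARS (−0.13) and YARS (−0.043). EHMT2 siRNA estimates turned to 0.039 for AARS without the parental and to −0.10 for CARS without the resistant EHMT2 siRNA library, within ranges of −1.28 to 0.039 and −0.10 to 1.04. The leave-one-out line estimates ran to 0.80 for AARS, 0.94 for CARS, 0.95 for SARS and 0.74 for YARS. The motif was in 6.25% of cytosolic windows on the gene's strand alone (1.87% of all), and in 9.99% of all with 1 base fewer. The cause of these changes was not tested. Unknown depth leaves the counting error of low members, such as AARS2 and WARS2, unmeasured.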
